A study of Homo sapiens with 414 samples.

Results

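The genes described here are 5 autosomal genes that stood higher in H9 than in H1 cells: C5orf62, TMEM64, PHLDA1, ANKRD46 and FAM117B, out of 19097 human genes in the single-cell tables. H1 and H9 are human embryonic stem cell lines. The study read RNA in single cells of both lines, caught on a microfluidic chip and copied into full-length cDNA, and in bulk H1 cultures. All groups were undifferentiated cells grown on Matrigel in E8 medium, with no treatment named. There were 92 H1 cells of passages 20 to 30 and 91 H9 cells of passages 25 to 35. Each cell was sequenced both at 24 and at 96 libraries per lane from the same cDNA. The bulk set held 48 H1 libraries of passage 16, made by another chemistry with random hexamer priming and read at 48 per lane.

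The members were chosen by their own readout. They belong to the 12 genes with the highest ratio of H9 to H1 among genes at 50 counts per 1000000 human counts (CPM) or more in H9, with reads in at least 50% of H9 cells and at least 2-fold higher at both depths. Of those 12 genes, 4 are X-linked (PIR, GYG2, EIF2S3 and RBBP7) and 8 autosomal, of which NLRP2, CLDN6 and USP3 are not members. The log2 ratios just inside the limit of 12 were 1.34 for ANKRD46, 1.32 for FAM117B and 1.32 for USP3, and the autosomal genes just outside were MYO6 at 1.29, BNIP3 at 1.25 and KCTD10 at 1.2. All differences between the lines given below for the members are therefore descriptions with no test. The sample titles carry 1 code per line and the labels name no repeat chip, so each line is 1 sample, and line, chip and range of passages cannot be told apart. All 5 members exceeded 10 CPM in H1, but 4 of them lay below 50 CPM there and met that limit through H9 alone; FAM117B was above it in both lines.

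Libraries at 24 per lane held between 1136295 and 8096756 human counts in H1 and between 1568326 and 7758948 in H9, those at 96 per lane between 293181 and 1868085 and between 380309 and 1810483, and bulk libraries between 2099639 and 3964675. Summed over 8 markers of undifferentiated cells, the level ran from 4311 to 9602 CPM in H1 cells and from 3623 to 7504 in H9 cells, and all 8 were above 10 CPM in both lines. Of 7 fibroblast markers 2 reached 10 CPM in each line, with COL3A1 and LUM at 0 counts in both, and the summed list ran from 56 to 687 CPM in H1 and from 72.6 to 547 in H9. None of the listed endoderm, mesoderm, neuroectoderm or trophoblast markers reached 10 CPM in either line. A few cells stood apart. By spike-in or mitochondrial share 5 H1 and 2 H9 cells were unusual, and 4 H9 cells resembled each other in their most variable genes (r from 0.18 to 0.68, against at most 0.17 between other H9 cells). The ratios of the members without them are given with the results.

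The 5 genes share no pathway. C5orf62, now named SMIM3, codes for a small integral membrane protein, and its rat relative is known as a gene switched on by nerve growth factor (NID67). TMEM64 codes for a multi-pass membrane protein of the family of VMP1 and TMEM41B, lipid-moving proteins of the endoplasmic reticulum, and in mouse it is known to act on the calcium pump SERCA2. PHLDA1 carries a pleckstrin-like domain and is known as a gene switched on by growth factors through the ERK cascade. FGF signalling through that cascade maintains human embryonic stem cells. ANKRD46 is an ankyrin-repeat protein of little-known function. FAM117B is likewise little studied, and in human cancer cells it has been described as a binder of KEAP1, the brake on the antioxidant factor NFE2L2.

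Start regions of the 3 members for which they can be shown are printed so that their base composition and common promoter motifs can be compared. Each runs from 250 bases before to 50 after the start in RefSeq (GRCh38.p14), 5′ to 3′ on the gene's strand. The coordinates are those of RefSeq, whereas the submitters' notes name hg19 for the reads. Capitals mark GGGCGG (the GC box), CCAAT and CACGTG (the E-box) on either strand. C5orf62 lies at chr5:150778507-150778806, plus strand, PHLDA1 at chr12:76031727-76032026, minus strand, and FAM117B at chr2:202634719-202635018, plus strand.
C5orf62: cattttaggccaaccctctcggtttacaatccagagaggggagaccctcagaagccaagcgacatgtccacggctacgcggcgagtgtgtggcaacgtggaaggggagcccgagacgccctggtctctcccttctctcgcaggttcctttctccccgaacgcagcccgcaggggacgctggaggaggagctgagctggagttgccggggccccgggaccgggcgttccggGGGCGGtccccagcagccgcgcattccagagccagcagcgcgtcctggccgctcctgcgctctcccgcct
PHLDA1: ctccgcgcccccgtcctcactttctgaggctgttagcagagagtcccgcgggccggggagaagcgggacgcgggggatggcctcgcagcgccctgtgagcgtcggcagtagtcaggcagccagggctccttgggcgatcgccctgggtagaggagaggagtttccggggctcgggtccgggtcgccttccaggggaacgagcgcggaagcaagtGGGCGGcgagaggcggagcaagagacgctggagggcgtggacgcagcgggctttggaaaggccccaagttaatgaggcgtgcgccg
FAM117B: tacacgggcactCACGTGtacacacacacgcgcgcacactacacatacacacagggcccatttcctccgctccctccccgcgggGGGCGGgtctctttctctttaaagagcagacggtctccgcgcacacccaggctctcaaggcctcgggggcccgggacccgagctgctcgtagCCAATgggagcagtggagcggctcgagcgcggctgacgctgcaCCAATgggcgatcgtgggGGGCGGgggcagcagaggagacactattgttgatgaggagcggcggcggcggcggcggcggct
All 3 were rich in CpG, with 27, 32 and 31 CG pairs against a median of 14 over 35116 RefSeq start regions of the same length. GGGCGG occurred once in C5orf62, once in PHLDA1 and in 2 places in FAM117B, and 45% of all start regions hold it. CCAAT was found in FAM117B alone among the 3 (2 matches, 34.6% of all start regions), as was CACGTG (1 match, 7.26%). TATAAA (11.5% of all) and TGACGTCA (1.85%) matched in none of the 3. The search covered both strands, and no searched motif overlaps another in these windows.

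C5orf62 showed the widest gap between the lines. Over the 92 H1 cells at 24 per lane its level ran from 0 to 103 CPM with a median of 9.72, and over the 91 H9 cells from 0.373 to 356 CPM with a median of 90.2. Only 2 H1 cells lay above the H9 median and only 4 H9 cells below the H1 median, so the lines overlapped little. Summed over cells, the H1 level was 16.4 CPM (95% Poisson interval 16.0 to 16.8) and the H9 level 94.2 CPM (93.2 to 95.2), which is a log2 ratio of 2.52. Taking every H9 cell against every H1 cell, the H9 cell was higher in 90.6% of pairs. By that share C5orf62 came 7th of the 8851 genes that reached 10 CPM in H1 or H9. The members were chosen by their ratio in these same cells, which favours a high rank in advance, so nothing is read from it. The difference held both a larger share of cells and a higher level in them. In H1, 33 cells were below 1 CPM and 46 at 10 CPM or more, with a median of 27.1 CPM in the latter, whereas 87 H9 cells were at 10 CPM or more, with a median of 91.4.

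TMEM64 was carried by part of the cells in both lines. Its level ran from 0 to 360 CPM over H1 cells (median 2.41) and from 0 to 495 CPM over H9 cells (median 39). High cells occurred in both lines, and 18 H1 cells exceeded the H9 median while 17 H9 cells lay below the H1 median. The H1 sum was 23.6 CPM (23.1 to 24.1) and the H9 sum 85.7 CPM (84.8 to 86.7), so the log2 ratio was 1.86. Cells at 10 CPM or more numbered 29 in H1 (31.5%, exact binomial 95% interval 22.2 to 42) and 66 in H9 (72.5%, 62.2 to 81.4). Within these cells the median was 50.8 CPM in H1 and 80.8 in H9. In H1 the top 10 cells held 63.6% of its summed CPM, the most uneven spread of the 5 genes. The ratio leans on few H1 cells: leaving out the highest cell of each line raised it to 2.14.

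At 24 per lane PHLDA1 had reads in every cell of both lines and differed mostly in level. It ran from 0.583 to 194.9 CPM over H1 cells (median 19.3) and from 1.68 to 450 CPM over H9 cells (median 61.8). The lines overlapped widely, with 20 H1 cells above the H9 median. Summed H1 cells gave 34.1 CPM (33.5 to 34.7) and summed H9 cells 93.2 CPM (92.2 to 94.2), with a log2 ratio of 1.45. The share of cells at 10 CPM or more was 72.8% in H1 and 82.4% in H9, and their median was 28.9 and 87.5 CPM. RefSeq lists an antisense RNA across this gene, and no label says that reads were counted by strand, so the reads of the pair cannot be told apart.

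ANKRD46 had cells with little or none of it in both lines. Levels ran from 0.0711 to 152 CPM over H1 cells (median 9.91) and from 0 to 409 CPM over H9 cells (median 53). In H9, 17 cells were below 1 CPM, only 9 between 1 and 10 CPM, and 65 at 10 CPM or more. The H1 cells held 19, 27 and 46 in the same classes. The sum over H1 cells was 26.9 CPM (26.3 to 27.4), that over H9 cells 67.8 CPM (67 to 68.7), and the log2 ratio 1.34. It overlapped most of the 5 genes, with H9 higher in 65.7% of cell pairs. At 236th of 8851 genes by that share, it ranked much lower than C5orf62. Counting any read would have put H1 ahead, with 91 of 92 H1 cells and 85 of 91 H9 cells. After thinning every cell to 1000000 counts these became 77 and 82, and no order of presence is read from them.

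FAM117B was present in all cells and shifted as a whole. It ran from 11.4 to 801 CPM over H1 cells (median 139) and from 19.7 to 1211 CPM over H9 cells (median 335). Just 5 H1 cells were above the H9 median and 8 H9 cells below the H1 median. Summed, H1 cells were at 172 CPM (171 to 174) and H9 cells at 431 CPM (429 to 433), for a log2 ratio of 1.32. H9 was higher in 84.9% of cell pairs, the 11th highest share of the 8851 genes, a rank that the choice of members also favours.

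**Figure D1:**
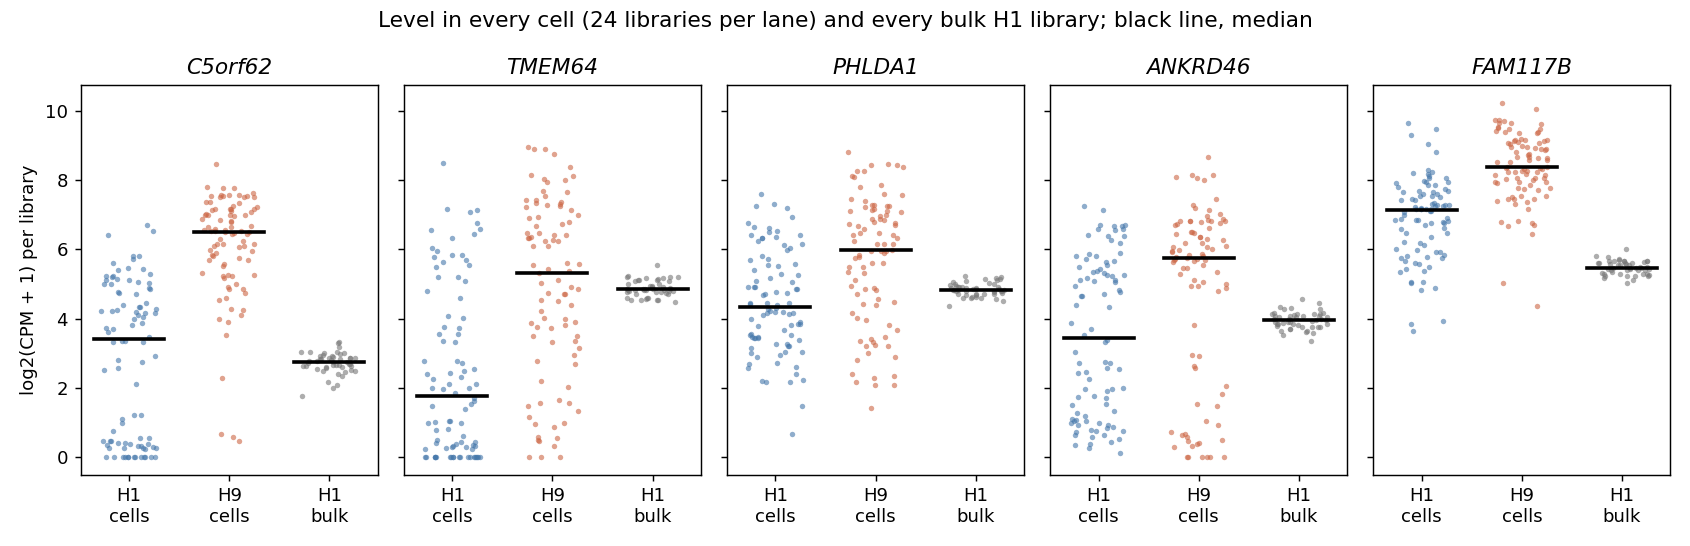
Level of each member, as log2(CPM + 1), in every H1 cell (n = 92), every H9 cell (n = 91) and every bulk H1 library (n = 48), with each point 1 library and the black line the median. H9 medians were 90.2 CPM for C5orf62 and 335 CPM for FAM117B, against 9.72 and 139 in H1, and TMEM64 and ANKRD46 keep low cells in H9.

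**Figure D2:**
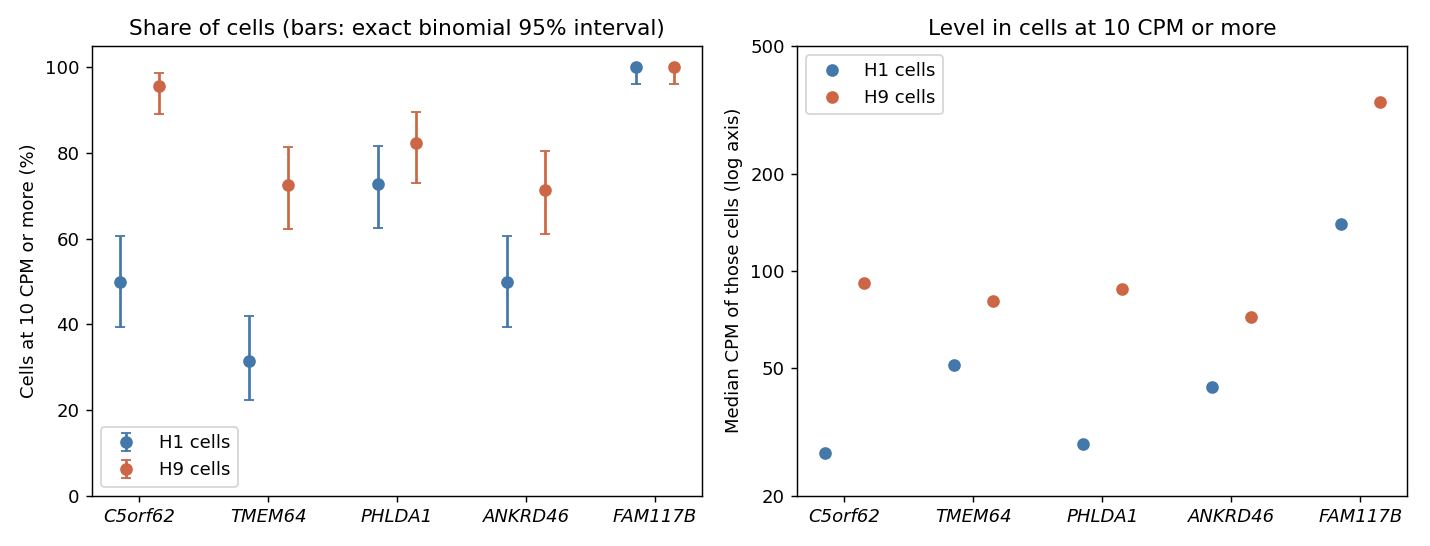
Left, percent of H1 and H9 cells at 10 CPM or more with exact binomial 95% intervals; right, median CPM of those cells on a log axis. The share went from 50% to 95.6% for C5orf62 and from 31.5% to 72.5% for TMEM64, and FAM117B, at 100% in both lines, differed only in level.

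Over all 8851 genes, 2.23% were at least 2-fold higher in H9 at 24 per lane and 1.83% in H1. The 5 members are among the former by choice, so nothing is read from that. With spike-in RNA in place of human counts as the scale, the log2 ratios were 2.64, 1.98, 1.57, 1.45 and 1.44 for C5orf62, TMEM64, PHLDA1, ANKRD46 and FAM117B. That scale moved the median of all genes by 0.12, and the share of 2-fold genes that were higher in H9 went from 54.9% to 69.2%. The scale adds the same amount to the ratio of every gene. The median spike-in share of a cell was 3.74% in H1 and 4.34% in H9, which leans the other way from the summed scale. The part of single cells with much spike-in RNA in that scale was not tested. With each cell scaled by its own spike-in counts, the share of cell pairs with H9 higher fell for all 5 genes. In the same order it was 88.5%, 74.8%, 66.7%, 62.4% and 82.5%, from 90.6%, 76.1%, 69.5%, 65.7% and 84.9%. Dropping the 5 H1 and 2 H9 cells named above gave log2 ratios of 2.43, 1.73, 1.35, 1.2 and 1.34. Without the 4 H9 cells that resemble each other they were 2.54, 1.91, 1.5, 1.39 and 1.35. POU5F1, NANOG and SOX2, core pluripotency factors that served as a reference, gave shares of pairs with H9 higher of 48.3%, 52.5% and 49.1%, beside a median of 47.5% over all genes. At 96 per lane SOX2 was at 39%.

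Other genes high in H9 showed both kinds of pattern. EIF2S3 and RBBP7, X-linked genes with ratios like those of ANKRD46 and FAM117B (1.40 and 1.34), separated the lines in 99.3% and 92.3% of pairs. USP3 (1.32), an autosomal deubiquitinase gene, did so in 76.6%, and the X-linked GYG2 (1.54) in 74.8%. Similar ratios of sums thus went with unlike overlap of cells: 65.7% for ANKRD46 at a ratio of 1.34 and 99.3% for EIF2S3 at 1.40. These 2 genes differ widely in level, at 26.9 and 67.8 CPM in H1 and H9 for ANKRD46 and 970 and 2564 for EIF2S3. The part of level in the overlap was not tested. No test of these differences was possible with 1 sample per line.

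Deeper sequencing of the same cDNA changed the summed levels little. Log2 ratios of the sums at 24 to those at 96 per lane lay between -0.08 (FAM117B in H1) and 0.10 (TMEM64 in H1). For FAM117B in H1 the counting intervals did not overlap, at 171 to 174 CPM and 180 to 186 CPM. At 96 per lane the summed levels were 16.6 and 93.4 CPM for C5orf62 in H1 and H9, 22.1 and 83.5 for TMEM64, 33 and 91.2 for PHLDA1, 26 and 68.5 for ANKRD46, and 183 and 427 for FAM117B. The log2 ratios of H9 to H1 were 2.49, 1.92, 1.47, 1.40 and 1.22, against a background of 2.34% of genes at least 2-fold higher in H9 and 2.07% in H1. The choice of members asked for 2-fold at this depth too, so nothing is read from their passing it. Cell by cell, the level at 24 per lane ranked as at 96 per lane, with Spearman's rho from 0.91 for PHLDA1 to 0.99 for FAM117B in H1 and from 0.98 to 0.99 in H9. The points are the same cells and cDNA, so this repeats the sequencing only. In cells whose mean level at the 2 depths was 10 CPM or more, the median within-cell log2 ratio of 24 to 96 per lane lay between -0.03 for FAM117B in H1 and 0.08 for PHLDA1 in H1.

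What the extra reads added was presence in H1. TMEM64 gained reads in 19 H1 cells, C5orf62 in 15, ANKRD46 in 12, PHLDA1 in 3 and FAM117B in none. In H9 the gains were 0 cells for C5orf62, 5 for TMEM64, 1 for PHLDA1, 7 for ANKRD46 and 0 for FAM117B. A few cells went the other way, with reads at 96 per lane only: 3 H1 cells for C5orf62, and 1 H9 cell for TMEM64 and 4 for ANKRD46. C5orf62 was at 10 CPM or more in 46 H1 cells at each depth. Thinned to 1000000 counts per cell, a depth that every cell reached, C5orf62 had reads in 62 of 92 H1 cells (67.4%, 56.8 to 76.8) against 79 unthinned, and in 89 of 91 H9 cells (97.8%, 92.3 to 99.7) against 91. TMEM64 had reads in 58 H1 cells (63%, 52.3 to 72.9) against 72 unthinned, and in 83 H9 cells (91.2%, 83.4 to 96.1) against 88. Both genes thus kept a larger share of cells with reads in H9 at equal depth. PHLDA1 had reads in 90 H1 and 91 H9 cells after thinning, and FAM117B in all cells. Intervals cover the sampling of cells or reads only.

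The members were also counted cell by cell. With each gene's H9 median as the mark, which the choice of the genes puts out of reach of most H1 cells, 42 of 92 H1 cells reached it for none of the 5 genes, 39 for 1, 9 for 2 and 2 for 3, and none for 4 or more. In H9, where the mark is the median by construction, 4 cells reached it for none, 15 for 1, 29 for 2, 22 for 3, 14 for 4 and 7 for all 5. These counts describe the cells and are no measure of whether the genes go together.

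**Figure D3:**
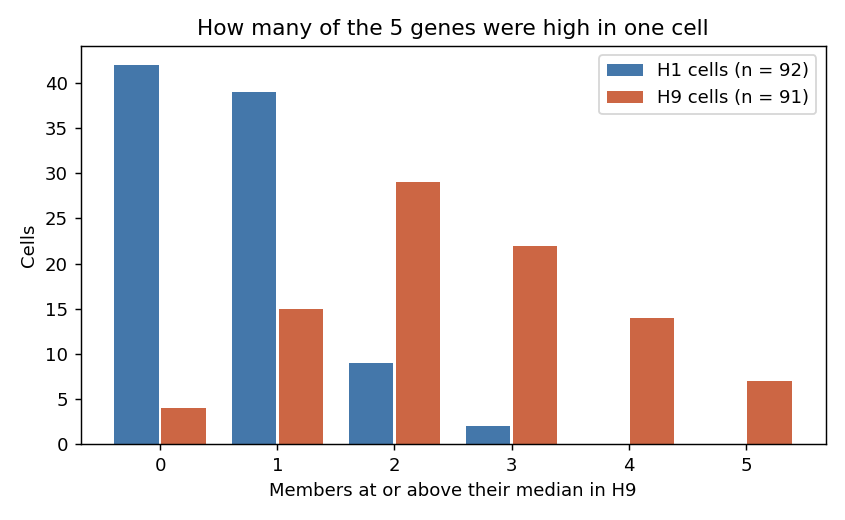
Number of cells (y axis) by how many of the 5 members reached their H9 median in that cell (x axis), at 24 libraries per lane. H1 cells pile up at 0 and 1 (42 and 39 cells), and H9 cells peak at 2 (29 cells).

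Within a line the rank correlations between members were weak. Over the 91 H9 cells the 10 pairs had a median Spearman's rho of 0.10, from -0.17 for PHLDA1 with FAM117B to 0.24 for TMEM64 with PHLDA1. The 92 H1 cells gave a median of 0.04, from -0.28 for ANKRD46 with FAM117B to 0.14 for TMEM64 with FAM117B. At 96 per lane the medians were 0.08 in H9 and 0.00 in H1, and 1 pair passed 0.3 in size, ANKRD46 with FAM117B in H1 (-0.31). The labels name no repeat chip within a line, and the depth of the cells enters every pair through the scaling. ANKRD46 with FAM117B had opposite signs in the lines (-0.28 in H1 and 0.12 in H9), and TMEM64 and ANKRD46, both on chromosome 8, gave 0.06 in H1 and 0.11 in H9.

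**Figure D4:**
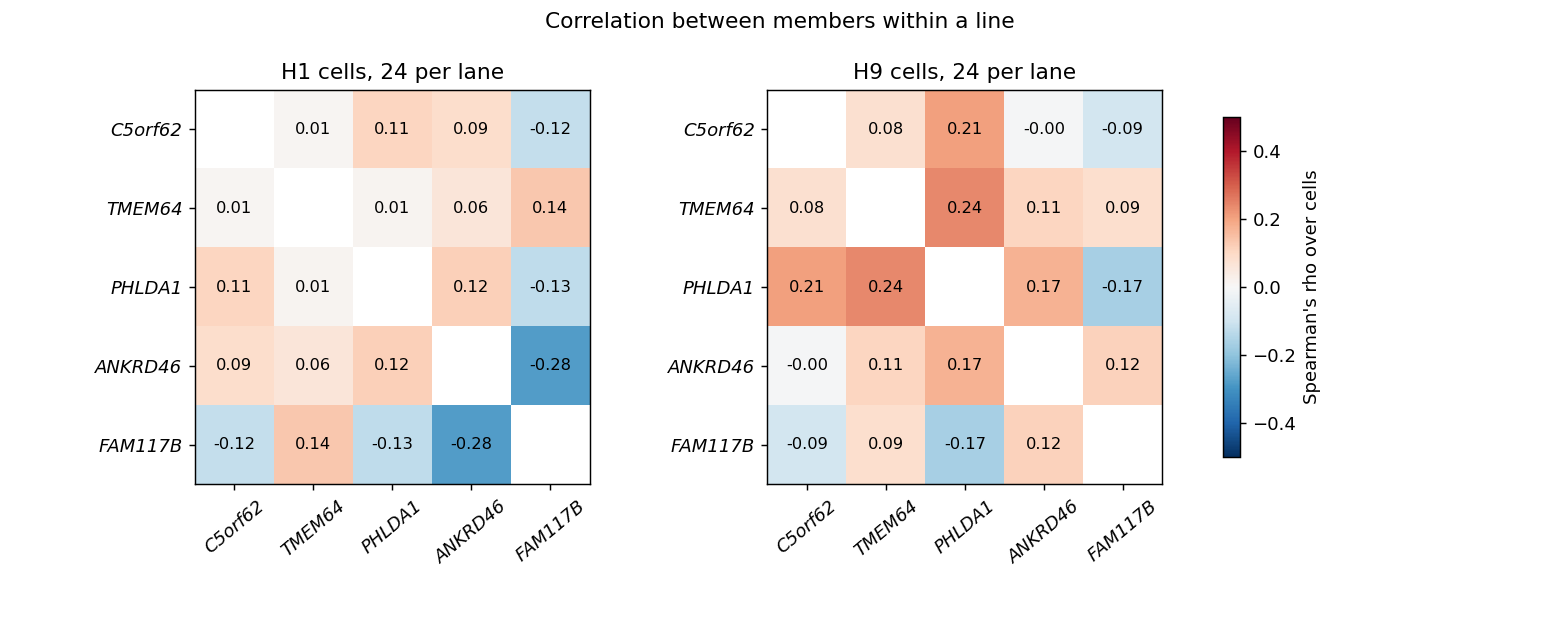
Spearman's rho between members over the 92 H1 cells (left) and the 91 H9 cells (right) at 24 libraries per lane; red is positive and blue negative. No pair passes 0.3 in size, and the strongest are -0.28 for ANKRD46 with FAM117B in H1 and 0.24 for TMEM64 with PHLDA1 in H9.

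Depth and RNA quality moved with some of the genes, as rho over the cells of 1 line at 24 per lane shows. PHLDA1 fell with the spike-in share of the cell (rho -0.43 in H1 and -0.25 in H9) and rose with the number of genes detected (0.36 and 0.17). FAM117B rose with the total count (0.18 in H1 and 0.39 in H9) and fell with the mitochondrial share (-0.27 and -0.23). In H1, ANKRD46 rose with the number of genes detected (0.25, and 0.33 at 96 per lane) and fell with the spike-in share (-0.22, and -0.28 at 96 per lane). For C5orf62 and TMEM64 no rho with total count, genes detected, mitochondrial share or spike-in share went beyond 0.25 in size at either depth. Their part in the line difference was not tested. For gene lists a score was used, the mean over genes of log2(CPM + 1) standardised over the cells of a line. At 24 per lane, rho with the score of 15 G2/M genes (mitosis) lay between -0.08 and 0.26, the latter for C5orf62 in H1. With that of 13 G1/S genes it lay between -0.08 and 0.16. At 96 per lane the bounds were -0.15 and 0.28 for G2/M and -0.12 and 0.18 for G1/S.

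Genes most like each member were found by the smaller of the 2 within-line rhos, among 3549 genes at 50 CPM or more and with reads in at least 50% of cells in both lines, FAM117B being one of these. For C5orf62 these were FASTKD2 (0.27), a mitochondrial RNA-binding gene, UBE2G2 (0.23), PGM2 (0.22) and RPS27L (0.22). TMEM64 came with CHMP2B (0.26), of membrane scission, RAB22A (0.25), of endosome traffic, GLOD4 (0.24) and MRPL28 (0.23). PHLDA1 was nearest to SPATS2L (0.31), CCDC142 (0.30), the elongation factor gene CCNT1 (0.30) and VHL (0.29), which codes for the oxygen-dependent degrader of HIF. ANKRD46 gave MTIF2 (0.25), TMEM184C (0.25), ATP6V1A (0.22) and IQGAP1 (0.20). FAM117B had the nearest partners, PPP1CB (0.33), SRSF6 (0.33), HIF1A (0.31) and IDH1 (0.30). All of these are weak, and the 99th percentile over the compared genes was between 0.14 and 0.19. None of the 20 genes was itself 2-fold apart between the lines, and their log2 ratios of H9 to H1 ran from -0.72 for SPATS2L to 0.57 for PGM2.

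Cell-to-cell spread was then set against genes of like level. The squared coefficient of variation of CPM, as log2 over the median of genes with a similar mean, was 1.65 for TMEM64 in H1 and 1.73 in H9, which placed it above 98.0% and 99.5% of genes. FAM117B was also more variable than its peers, at 1.30 and 1.11 (above 95.2% and 96.0% of genes). PHLDA1 stood at 0.42 in H1 and 0.99 in H9, and ANKRD46 at 0.46 and 0.68. C5orf62 was near its peers, at 0.16 and -0.18. The gene with the widest gap between the lines was thus the least variable of the 5 within each line for its level.

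Bulk H1 libraries give a level for the line that the choice of members did not use. C5orf62 measured 5.71 ± 1.35 CPM (SD, n = 48), TMEM64 at 28.8 ± 4.96, PHLDA1 at 27.9 ± 3.89, ANKRD46 at 14.7 ± 2.72 and FAM117B at 43.9 ± 6.21. The labels do not say whether these libraries came from separate cultures, so the SD may be technical, and in bulk RNA fewer cells with a transcript and less of it per cell cannot be told apart. C5orf62 ran from 2.36 to 8.97 CPM, with a median of 5.69, and TMEM64 from 21.2 to 45.6 (27.8). For PHLDA1 the range was 19.6 to 36.8 CPM (27.4), for ANKRD46 9.23 to 22.9 (14.6) and for FAM117B 31.8 to 63.6 (43.2). Variance over libraries was 0.931 times that of counting alone for C5orf62, 1.39 times for ANKRD46, 1.62 for PHLDA1, 2.51 for TMEM64 and 2.61 for FAM117B.

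Mitochondrial genes are missing from the bulk table, so totals were taken without them, and on that scale the summed H1 cells stood at 17.5, 25.1, 36.3, 28.6 and 183 CPM for C5orf62, TMEM64, PHLDA1, ANKRD46 and FAM117B. The summed H9 cells were at 102, 92.7, 100.7, 73.3 and 466 CPM. In the same order the log2 ratios of H1 cells to bulk H1 were 1.61, -0.20, 0.38, 0.96 and 2.06. C5orf62 and FAM117B were at least 2-fold higher in H1 cells than in bulk, 2 of 5 genes, beside a background of 30.1% of genes higher in cells and 21.5% higher in bulk. TMEM64 was lower in H1 cells by less than the log2 SD over bulk libraries (0.24), but by more than it at 96 per lane (-0.29), with the mean of per-cell CPM (-0.30) and with TMM factors (-0.36). For all 5 genes the H9 sum was above the highest bulk library, by log2 ratios to the bulk mean of 4.16, 1.68, 1.85, 2.32 and 3.41. The H1 sum was also above the highest bulk library for C5orf62, ANKRD46 and FAM117B, so that position is not particular to H9 for these genes. Chemistry and passage differ between cells and bulk, and the H1 cells enter both comparisons, so the values are set side by side only. For the single-cell counts that follow, totals kept the mitochondrial genes (median share 5.37% in H1 and 7.39% in H9 cells). Cell levels therefore read slightly low against bulk, and cells near a bulk limit could change class on totals without those genes. Counted so, 87 of 91 H9 cells exceeded the highest bulk library for C5orf62 and 89 for FAM117B, but 43 for TMEM64. Of the 92 H1 cells, 49 also exceeded it for C5orf62 and 68 for FAM117B. For ANKRD46, 41 H1 and 64 H9 cells did so, and for PHLDA1 29 and 59. For TMEM64, 69 of 92 H1 cells lay below the lowest bulk library and 16 above the highest, with 7 within the bulk range.

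Among relatives of the members at 10 CPM or more in H1 or H9, none was 2-fold apart, beside 2.23% of all such genes 2-fold higher in H9 and 1.83% in H1, so lists this short hold few such genes or none at the background share. TMEM41B and VMP1 had log2 ratios of H9 to H1 of -0.35 and -0.01, and TMEM41A was at 35.7 CPM in H1 and 35.6 in H9. PHLDA2 and PHLDA3, and FAM117A, stayed below 10 CPM in both lines. Of 16 other ANKRD genes none was 2-fold apart, with ANKRD27 (0.44), ANKRD12 (-0.42), ANKRD10 (0.38) and ANKRD16 (-0.36) the widest. Of 9 other small integral membrane protein genes none was 2-fold apart, with C8orf40 highest at 0.82. The median over all genes was -0.02.

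Genes of ERK signalling were listed because PHLDA1 is one of its targets. Of 15 other targets and feedback genes of the cascade at 10 CPM or more, none was 2-fold apart, which is near the background share, and 8 were above 0 (median 0.05). DUSP4 (5.86 CPM in H1 and 1.60 in H9) and IER3 (2.24 and 6.13) were under 10 CPM and not counted. SPRY1 (-0.96) and SPRY4 (-0.74), feedback inhibitors, SPRED1 (-0.68) and FGF2 (-0.56), the ligand, were lower in H9, while ETV5 (0.46), a transcription factor target, and DUSP6 (0.20), the ERK phosphatase, were higher. Within lines, rho of PHLDA1 with these genes had a median of 0.02 in H1 and 0.04 in H9, and 8 of 15 were positive in both. The score of this list, a mean of standardised levels, took 14 genes in H1 and 15 in H9. With it, rho was 0.18 for PHLDA1 in both lines, and 0.31 in H1 and 0.13 in H9 for TMEM64. No gene was 2-fold apart among 9 genes of the KEAP1 and NFE2L2 response (median -0.39), with SLC7A11 (-0.83), NFE2L2 (-0.65), KEAP1 (0.64) and GCLM (-0.63) the widest. The 11 unfolded protein and stress genes had a median of -0.20, led by CHAC1 (-0.88), SLC7A11 and ASNS (-0.64), the 5 calcium store genes a median of -0.01, with the SERCA2 gene ATP2A2 at -0.29, and the 4 WNT pathway genes a median of -0.09, with CTNNB1 at -0.25. The 15 G2/M and 14 G1/S genes had medians of 0.02 and 0.04, and TYMS (0.72) and E2F1 (-0.87) were the widest of them. At 10 CPM or more none of these listed genes passed 2-fold, again near the background share for lists of this size. A list is described here by its counts and median only.

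The members were also set beside their measured neighbours on the chromosome. The RefSeq table places C5orf62 on chromosome 5, TMEM64 and ANKRD46 on 8, PHLDA1 on 12 and FAM117B on 2. Of the 10 nearest measured genes around each member, none was 2-fold higher in H9, beside 2.23% of all genes. At that share sets this small hold few such genes or none, so nothing is read from the count. The medians of these neighbours were -0.20 for C5orf62, 0.29 for TMEM64, 0.08 for PHLDA1, -0.10 for ANKRD46 and -0.19 for FAM117B. The median was highest around TMEM64. CALB1 (0.80) and NECAB1 (0.77), which flank it, and DECR1 (0.73), the next on one side, all leaned toward H9, while TMEM55A was at 0.01. Around C5orf62 the flanking DCTN4 and ZNF300 had 0.15 and -0.69, and around FAM117B BMPR2 and ICA1L had -0.94 and -0.25. KRR1 and NAP1L1 beside PHLDA1 gave 0.15 and 0.01, and RNF19A and PABPC1 beside ANKRD46 gave 0.50 and -0.08. One neighbour of ANKRD46 was 2-fold lower in H9 (NCALD at -1.83, named after its value was seen). The 34 measured genes between TMEM64 and ANKRD46 had a median of 0.00, with none 2-fold higher in H9. Over whole chromosomes the medians without the member were -0.02 for 5, -0.01 for 8, -0.03 for 12 and -0.01 for 2, and 2.15% of the other genes of chromosome 8 were 2-fold higher in H9.

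**Figure D5:**
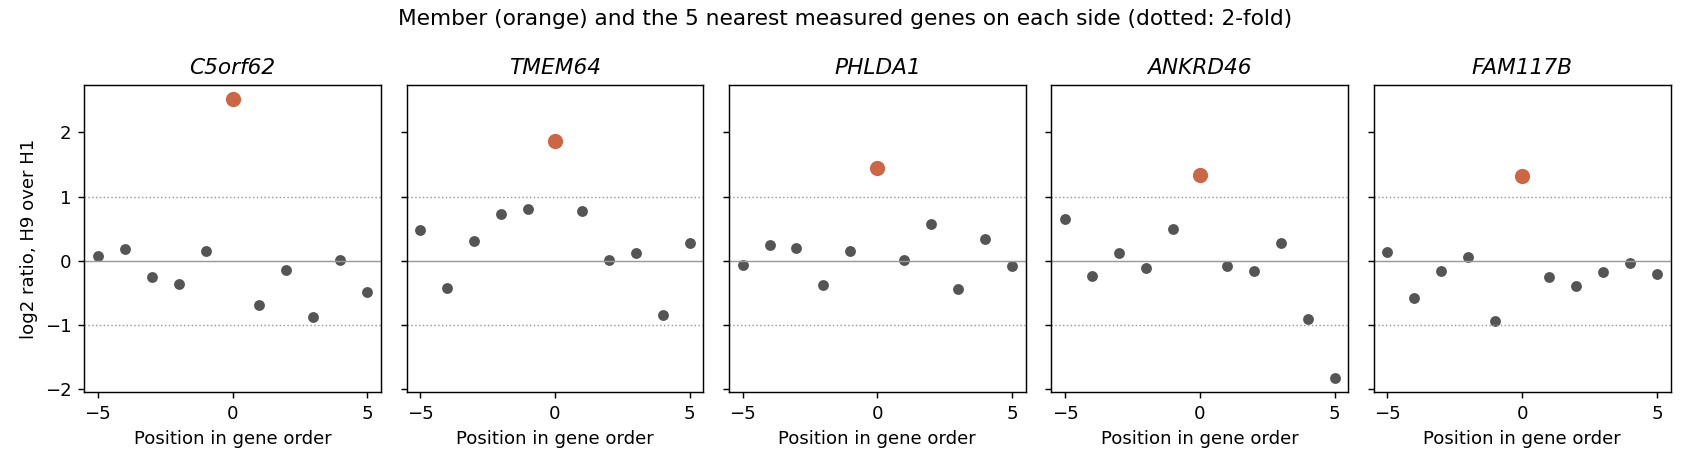
Log2 ratio of H9 to H1 at 24 libraries per lane for each member (orange, position 0) and the 5 nearest genes on each side at 10 CPM or more (grey), in gene order; dotted lines mark 2-fold. All neighbours lie below the upper dotted line, with those flanking TMEM64 the highest at 0.80 and 0.77.

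Transcript length and GC content of the members spread around the medians of all genes. The longest coding transcript in GENCODE had 2332 bases for C5orf62, 4997 for TMEM64, 8069 for PHLDA1, 3270 for ANKRD46 and 5763 for FAM117B, against a median of 3660.5 over the 8788 of 8851 genes that could be matched. GC content ran from 40.3% in TMEM64 to 52.4% in C5orf62, around a median of 45.9%. PHLDA1 was longer than 90.3% of genes and C5orf62 shorter than most, above 25.5% of them.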

How the data were processed

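The authors deposited expected counts per gene from RSEM, 1 table per group, and these were used as deposited. Per the submitters' processing notes, the tools were CASAVA 1.8.2, RSEM 1.2.3 and Bowtie 0.12.8, and the build was hg19. Which annotation was used is not given in the sources used here. Reads were single-end, 51 bp. The members and gene lists were chosen with earlier results of these data known. Counts of 92 spike-in rows were left out of totals. Cells were summed per line, levels are CPM of human counts, and genes at 10 CPM in H1 or H9 were compared, with a ratio of 2-fold counted as a difference. Sums carry exact Poisson and shares exact (Clopper-Pearson) binomial 95% intervals, which cover counting error only. Amplified reads are not independent molecules, so the former are too narrow. No p-value was computed, since each line is 1 sample. A gene has reads in a cell where its expected count rounds to 1 or more. Thinning drew counts binomially.

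Named by rule were the members, the 4 genes most like each, up to 4 of each list with the largest ratios, and the 2 nearest measured genes on each side of a member. Others are named as examples after their values were seen. Correlations are Spearman's over cells of 1 line. Genes were given chromosomes and order from the RefSeq table (GRCh38.p14), with older symbols matched through its synonyms, and transcript lengths from GENCODE release 29. Alternatives were the other depth, TMM and median-of-ratios factors, mean per-cell CPM, spike-in scaling, other minimums and subsets of cells. Leaving out 4 similar H9 cells was added after seeing the data. The methods were tried on simulated data. Ratio calls used Poisson sums without cell-to-cell variation, and 200 of 200 changed genes were recovered at 2.5-fold and 0 at 1.5-fold. The 2-fold limit sets that outcome, so it checks the code and says nothing of how the calls do on these cells. Tools were Python 3.11.15, numpy 2.4.6, pandas 2.3.3, scipy 1.17.1, matplotlib 3.10.9, and edgeR 4.0.16 for TMM in R 4.3.3.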

Additional observations from a re-analysis of the deposited data

How the results depend on the processing

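All 5 ratios of H9 to H1 kept their direction and stayed above 2-fold under all 10 alternatives, with log2 ranges of 2.42 to 2.64 for C5orf62, 1.73 to 2.14 for TMEM64, 1.35 to 1.57 for PHLDA1, 1.17 to 1.45 for ANKRD46 and 1.22 to 1.44 for FAM117B. At 96 per lane this was fixed by the choice of genes, which asked for 2-fold at both depths. The other alternatives reuse the cells on which the genes were chosen. Values beyond the counting interval follow in log2. At 96 per lane TMEM64 was 1.92, ANKRD46 1.40 and FAM117B 1.22. With the mean of per-cell CPM TMEM64 was 1.97, PHLDA1 1.41, ANKRD46 1.27 and FAM117B 1.35. Without the highest cell of each gene TMEM64 was 2.14, ANKRD46 1.39 and FAM117B 1.38. Leaving mitochondrially encoded genes out moved FAM117B to 1.35. Without the 10% of cells with the fewest genes the values for C5orf62, TMEM64, PHLDA1, ANKRD46 and FAM117B were 2.42, 1.73, 1.35, 1.17 and 1.44, and without the 5 H1 and 2 H9 cells that stand apart by spike-in or mitochondrial content 2.43, 1.73, 1.35, 1.2 and 1.34. Spike-in scaling gave 2.64, 1.98, 1.57, 1.45 and 1.44. Without the 4 similar H9 cells TMEM64 was 1.91, PHLDA1 1.5, ANKRD46 1.39 and FAM117B 1.35. The cause of these moves was not tested. Genes at least 2-fold higher numbered 197 in H9, but 905 in H9 and 610 in H1 with 1 CPM as the minimum, where more genes are compared. Shares of cells with reads depend on depth and on the limit. For H1 cells at 5 counts, thinned, and at 96 per lane they were 60.9%, 67.4% and 72.8% for C5orf62, 57.6%, 63% and 57.6% for TMEM64, and 79.3%, 83.7% and 85.9% for ANKRD46. For H9 cells at 5 counts they were 87.9% for TMEM64 and 79.1% for ANKRD46. Shares of cell pairs stayed within a binomial interval that took the number of H9 cells as its trials. Median pairwise rho moved by less than the SD over the 10 pairs (0.14 in H1, 0.13 in H9). Cell-to-cell spread moved by less than its SD over all genes (0.99 and 0.85), and bulk levels by less than the SD over libraries. These limits are wide: the value of C5orf62 in H1 went from 0.16 to -0.10 at 96 per lane within them. Little can therefore be read from that stability. No paired analysis was possible because the line comparison comes from no test, and cell numbers of H1 and H9 name unrelated cells. The ratio of H1 cells to bulk for TMEM64 was -0.20, within the bulk log2 SD of 0.24, and between -0.36 and -0.29 under the 3 alternatives, beyond it. No second sample of either line was analysed here.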
